A study of Mus musculus with 8 samples.

Results

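The 9 genes described pattern the Müllerian duct or act as homeobox regulators in the uterus, and were taken by name: *Msx1*, *Msx2*, *Meis1*, *Meis2*, *Emx2*, *Lhx1*, *Pax2*, *Wt1* and *Amhr2*, of 21951 protein-coding genes of the annotation. A locus was the gene body and the 50.0 kb on each side of it, and the 9 loci covered 1405 kb in all, with a median of 109 kb against 117 kb for all coding genes. Chromatin immunocleavage sequencing (ChIC-Seq), in which an antibody guides micrococcal nuclease to the chromatin its antigen occupies, had been run on stromal cells prepared from the uteri of WT mice on day 4 (D4), with an antibody against PBRM1 (also called BAF180, the bromodomain subunit of the PBAF form of SWI/SNF) or BRG1 (the ATPase of the SWI/SNF complex). Each antibody had 3 replicate libraries. Of IgG there were 2 libraries, not analysed here. The mice were 8 to 12 weeks old, the labels speak of pregnancy whereas the cell protocol names pseudopregnant mice, and the uterine horns of 5 to 10 mice were pooled and cultured for some hours. No knockout or treatment is part of these libraries, so that the comparison the design allows is between the antibodies, at the same genes. A peak here is a region that MACS called at a q-value of 0.05 against nearby signal in its own library, with no control file, and the fold enrichment is the authors' value over that background.

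The Müllerian ducts are paired tubes of the embryo that become the oviduct, uterus and upper vagina. In the embryo, the duct epithelium depends on LHX1, PAX2 and EMX2, and WT1 acts in the coelomic epithelium and the mesenchyme around it. AMH, made by the fetal testis, binds AMHR2 on that mesenchyme and makes the ducts regress in males. In the adult uterus, MSX1 and MSX2 are homeobox factors required for implantation, and MEIS1 and MEIS2 are homeodomain cofactors that bind DNA together with PBX and HOX proteins.

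Between 8868777 and 16505239 fragments and 21912 to 26363 peaks made up a PBRM1 library, and between 11506964 and 14595089 fragments and 36656 to 40610 peaks a BRG1 library. PBRM1 replicate 3 had the most fragments and the fewest peaks of all 6. The promoters of the stromal markers *Hand2*, *Nr2f2*, *Pdgfra* and *Vim* carried a peak in all 6 libraries, which with *Col1a1* (3 BRG1 libraries) left 1 of 6 stromal markers, *Col3a1*, without a peak in 3 libraries of an antibody. None of the 3 leukocyte markers had a peak in any library, whereas 4 of 6 epithelial, 2 of 3 endothelial and 2 of 4 smooth muscle markers had one in 3 BRG1 libraries, and 1 of each list in 3 PBRM1 libraries. Over all coding genes, 61.4% had a promoter peak in 3 BRG1 libraries and 52.2% in 3 PBRM1 libraries. A peak is not expression, and the share of other cells was not tested.

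A promoter peak, within 2000 bp of any annotated transcription start site (TSS) of the gene, was present in all 6 libraries for 5 of the 9 genes, *Msx2*, *Meis1*, *Meis2*, *Emx2* and *Wt1*. The share over all protein-coding genes was 51.9%. The same 5 genes made up those with a promoter peak in 3 PBRM1 libraries (52.2% of all coding genes), and *Msx1* joined them as the sixth in 3 BRG1 libraries (61.4% of all coding genes). *Lhx1* and *Pax2* had a promoter peak in 2 BRG1 libraries and in no PBRM1 library, and *Amhr2* had none in any of the 6. None of the 9 lacked a promoter peak in all 8 lists, the pooled lists included, against 26.4% of all coding genes. The members' counts of 5, 5 and 6 of 9 lay near these shares, and read against them are no result about the 9 genes.

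*Msx1* (chr5:37820485-37824583, minus strand), which encodes a homeobox repressor, had its promoter peak at a summit 83 bp before the TSS. The fold enrichment was 5.19 and 4.52 in PBRM1 replicates 1 and 2, with no peak in replicate 3, and 5.50, 4.88 and 6.06 in BRG1 replicates 1 to 3, a mean of 5.48 ± 0.590 (SD, n = 3). The 150 bases before the TSS, shown because this is the stretch under the summit, hold 15 CpG dinucleotides (in capitals; GRCm38):

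*Msx1* upstream, chr5:37824584-37824733, minus strand: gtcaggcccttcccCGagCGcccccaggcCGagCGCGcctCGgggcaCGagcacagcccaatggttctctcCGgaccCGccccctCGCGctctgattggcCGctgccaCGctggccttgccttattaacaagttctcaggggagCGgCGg

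The *Msx1* locus held the fewest pooled BRG1 peaks per length of the 9, 3.84 per 100 kb. Besides the promoter, its flanks had a site 2.22 kb upstream in 2 BRG1 libraries and a site 39.4 kb downstream in 1.

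*Msx2* (chr13:53466884-53473074, minus strand), the paralog that acts with *Msx1* in the uterus, had the highest mean promoter fold of the 9 genes with either antibody. The fold enrichment was 8.99, 5.30 and 4.80 in the 3 PBRM1 libraries, a mean of 6.36 ± 2.29 (SD, n = 3), and 6.84, 6.44 and 8.20 in the 3 BRG1 libraries, a mean of 7.16 ± 0.924 (SD, n = 3). Among the promoter peaks of its own list it stood at the 69.9 percentile in PBRM1 replicate 1 and at 24.1 and 27.6 in replicates 2 and 3. The summit lay 259 bp after the TSS, in the UTR of an exon, and moved by at most 76.0 bp between lists. A further site 29.3 kb downstream of the TSS (chr13:53443705-53444237), in an intron of the noncoding gene *Gm2762*, had a peak in 3 PBRM1 libraries with folds of 4.15, 4.31 and 4.37, and in BRG1 replicates 1 and 3 with 8.51 and 8.38. It was the only site away from promoters in the 9 loci that reached 3 PBRM1 libraries without reaching 3 BRG1 libraries. The 201 bases around its pooled BRG1 summit are shown because the string TGANTCA of AP-1 (in capitals) starts 1 base after the summit, a string that 12.5% of 6469 distal BRG1 windows of this length held on either strand:

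*Msx2* downstream site, chr13:53443695-53443895, minus strand: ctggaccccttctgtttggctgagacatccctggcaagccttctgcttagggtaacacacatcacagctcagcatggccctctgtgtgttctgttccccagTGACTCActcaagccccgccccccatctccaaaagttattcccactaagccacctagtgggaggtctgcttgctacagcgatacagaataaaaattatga

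*Meis1* (chr11:18879817-19018985, minus strand) and *Meis2* (chr2:115863064-116065839, minus strand) had the promoter peak that was in all 6 libraries over 1 kb upstream of the TSS. At *Meis1* the site in all 6 libraries lay 1.59 kb upstream (chr11:19020404-19020859), with folds of 5.23, 4.22 and 3.61 in PBRM1 and 6.71, 6.16 and 5.47 in BRG1. A separate peak 88 bp before the TSS was in the 3 BRG1 libraries with 5.40, 5.76 and 5.08 and in PBRM1 replicate 2 with 4.55. At *Meis2* the site in all 6 libraries lay 1.44 kb upstream (chr2:116066648-116067430), over exons of the noncoding genes *2700033N17Rik* and *G630016G05Rik*, with folds of 5.99, 5.12 and 4.24 in PBRM1 and 6.42, 5.30 and 6.03 in BRG1. That site covered a TSS of *G630016G05Rik* and lay 809 bp from the nearest *Meis2* TSS, so that it cannot be given to *Meis2* alone. A separate peak with its summit 126 bp after the main *Meis2* TSS was in PBRM1 replicate 2 with 4.03 and BRG1 replicate 3 with 4.38. Among the promoter peaks of each PBRM1 list, *Meis1* stood at the 14.8, 11.8 and 4.34 percentile and *Meis2* at 26.0, 21.3 and 15.1. A second *Meis1* site in all 6 libraries lay 8.43 kb upstream, in an interval that the annotation leaves intergenic (chr11:19026623-19027671), with 5.66, 5.52 and 3.89 in PBRM1 and 9.84, 5.82 and 7.00 in BRG1. *Meis2*, whose locus is the longest of the 9 at 303 kb, had no such site away from promoters in 3 libraries. The 201 bases around the summits of both *Meis1* sites are shown because they were the sites of this locus in all 6 libraries, with the strings TGATNNAT (PBX and HOX) and GGAATG (TEAD) in capitals:

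*Meis1* site 1.59 kb upstream, chr11:19020475-19020675, minus strand: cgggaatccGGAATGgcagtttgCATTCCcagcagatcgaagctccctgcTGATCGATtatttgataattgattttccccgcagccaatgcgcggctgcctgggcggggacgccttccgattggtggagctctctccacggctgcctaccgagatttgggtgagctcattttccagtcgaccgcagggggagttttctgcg

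*Meis1* site 8.43 kb upstream, chr11:19027311-19027511, minus strand: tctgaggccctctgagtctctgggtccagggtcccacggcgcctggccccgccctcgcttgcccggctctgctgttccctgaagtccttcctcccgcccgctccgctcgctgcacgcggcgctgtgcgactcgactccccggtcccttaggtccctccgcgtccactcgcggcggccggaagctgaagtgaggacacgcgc

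The nearer window held TGATNNAT once and GGAATG at 2 places, and the farther one, 71.6% G and C, held none of the 8 strings searched. TGATNNAT was in 4.30% and GGAATG in 11.3% of distal BRG1 windows.

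*Emx2* (chr19:59458372-59465357, plus strand), a homeobox gene downstream of *Hoxa10* in the uterus, shares its promoter with the antisense gene *Emx2os*, so that a peak there cannot be given to 1 of the pair. The promoter folds were 4.37, 4.07 and 3.78 in PBRM1, a mean of 4.07 ± 0.298 (SD, n = 3), and 4.20, 5.21 and 5.17 in BRG1, a mean of 4.86 ± 0.572 (SD, n = 3). A site 10.9 kb downstream of the TSS and past the gene end (chr19:59469002-59469795) had higher PBRM1 values, 5.54, 7.07 and 4.18, a mean of 5.60 ± 1.45 (SD, n = 3), beside 5.27, 5.51 and 5.23 in BRG1. In replicates 1 and 2 of PBRM1 it stood above the promoter of the same library by more than 1, and in replicate 3 the values were close. Sites 6.65 kb upstream and 9.17 kb downstream were in 3 BRG1 libraries and 1 PBRM1 library each. The window of the site in all 6 libraries is shown because it is the *Emx2* site with the highest PBRM1 fold, with TGATNNAT in capitals at 2 places:

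*Emx2* site 10.9 kb downstream, chr19:59469123-59469323, plus strand: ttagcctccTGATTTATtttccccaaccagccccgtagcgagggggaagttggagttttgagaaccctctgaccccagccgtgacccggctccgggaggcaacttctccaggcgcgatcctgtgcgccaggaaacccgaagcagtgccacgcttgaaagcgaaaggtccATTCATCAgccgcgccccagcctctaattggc

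*Lhx1* (chr11:84518284-84525535, minus strand), which encodes a LIM homeodomain factor, had promoter peaks in BRG1 replicates 1 and 3 and in no other replicate, with a weak one of fold 3.07 in the pooled PBRM1 list. The strongest lay in its intron, 2.74 kb from the main TSS and beside another annotated TSS, with folds of 7.16 and 4.43, and a second at 39 bp before the main TSS had 3.29 and 3.82. The second also covered a TSS of the gene *Lhx1os*, so that it cannot be given to *Lhx1* alone. The peak of the locus that was in all 6 libraries was at the promoter of the neighbouring gene *Aatf*, with 14.3, 11.0 and 7.39 in PBRM1 and 13.7, 15.3 and 14.4 in BRG1. *Pax2* (chr19:44756045-44837871, plus strand), a paired-box gene of the duct epithelium, had weak promoter peaks of 2.76 in BRG1 replicate 1 and 3.80 in replicate 3. The pooled BRG1 summits of these sites lay 54 bp before and 529 bp after the TSS. These are separate places, so that no *Pax2* promoter position was called in more than 1 library. Its flanks held more, since a site 127 kb downstream of the TSS (chr19:44882467-44883113) had 7.47, 6.29 and 6.90 in BRG1 and 5.74 and 3.84 in PBRM1 replicates 1 and 2. The nearest coding TSS of that site was that of *Slf2*, 48038 bp away, against 122552 bp for *Pax2*. A site 35.8 kb upstream had 4.38, 4.18 and 4.44 in BRG1 and 4.56 and 4.61 in the same PBRM1 libraries. PBRM1 replicate 3 had no peak anywhere in the *Pax2* locus.

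*Wt1* (chr2:105126529-105173616, plus strand), the zinc-finger gene, had the densest locus of the 9, with 14.3 pooled BRG1 peaks per 100 kb, the 94.5th percentile of all coding genes. The density of the other 8 ran from 3.84 to 8.80, around the median of 5.44 over all coding genes. The peak at the main TSS (chr2:105126321-105127444) was in all 6 libraries, with folds of 5.09, 4.61 and 3.23 in PBRM1 and 4.46, 5.01 and 4.94 in BRG1, and this region is shared with the antisense gene *Wt1os*. A peak 1525 bp from another annotated TSS, 34.6 kb downstream in an intron (chr2:105161051-105161283), had higher folds of 6.62 and 5.59 in BRG1 replicates 1 and 3 and was in no other replicate. Of 22 *Wt1* sites, 17 had a peak in a replicate library, 8 of them in BRG1 libraries alone and 9 with both antibodies. A site 80.6 kb from the TSS, past the gene end (chr2:105206509-105207319), was in all 6 libraries with 5.72, 4.27 and 5.01 in PBRM1 and 6.11, 9.01 and 5.28 in BRG1, and its nearest coding TSS was that of *Them7*. Sites 28.8 kb and 13.5 kb upstream, in introns of *Wt1os*, were in 3 BRG1 libraries, the nearer one with 3.58, 4.17 and 3.04 and with no PBRM1 library.

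*Amhr2* (chr15:102445367-102454633, plus strand), which encodes the type II receptor of AMH, had no promoter peak in any replicate library. Only the pooled fragments gave weak ones, a PBRM1 peak of fold 3.35 with its summit 78 bp before the TSS (chr15:102445201-102445420) and a BRG1 peak of fold 3.46 in an intron near another TSS (chr15:102451037-102451289). Both were below the 5th percentile of promoter folds in their lists. The peaks of the locus in all 6 libraries were at the promoters of *Sp1* and *Pcbp2* and at a site 45.6 kb upstream of *Amhr2* (chr15:102399267-102400161), whose nearest coding TSS was that of *Sp1*. Of 10 other genes of the AMH pathway, 8 had a promoter peak in 3 PBRM1 libraries (52.2% of all coding genes) and 9 in 3 BRG1 libraries (61.4% of all coding genes), among them *Amh* itself (BRG1 folds 6.13, 6.73 and 6.67), the type I receptor *Bmpr1a* (6.73, 6.81 and 6.42), *Acvr1* and the transducers *Smad1*, *Smad4*, *Smad5* and *Smad9*, and *Sp7* was the 1 gene of the 10 with no replicate peak. The 150 bases before the *Amhr2* TSS are shown because the pooled PBRM1 peak covers them, and they hold 4 CpG dinucleotides (in capitals), against 15 in the *Msx1* stretch printed above:

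*Amhr2* upstream, chr15:102445217-102445366, plus strand: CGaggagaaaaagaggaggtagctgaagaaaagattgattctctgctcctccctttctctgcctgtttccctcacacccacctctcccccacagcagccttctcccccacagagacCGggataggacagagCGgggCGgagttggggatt

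The promoter of *Amhr2* differed in composition from those of the other 8. The CpG ratio, the observed over the expected number of CpG dinucleotides in 1001 bp centred on the TSS, was 0.187 at *Amhr2* and 0.656 to 0.840 at the others, with a median of 0.552 over all coding genes. Below a ratio of 0.2, 10.7% of coding genes had a promoter peak in 3 BRG1 libraries and 7.63% in 3 PBRM1 libraries. Among the 10083 coding genes with a ratio of at least 0.6, 93.8% had a peak in 3 BRG1 libraries, 83.7% in 3 PBRM1 libraries and 83.4% in all 6. Of the 8 members in that class, 6 had one in 3 BRG1 libraries and 5 in 3 PBRM1 libraries, and *Lhx1*, with the highest ratio of the 9, and *Pax2* fell outside both. What part composition has in the presence of a peak was not tested.

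**Figure D1:**
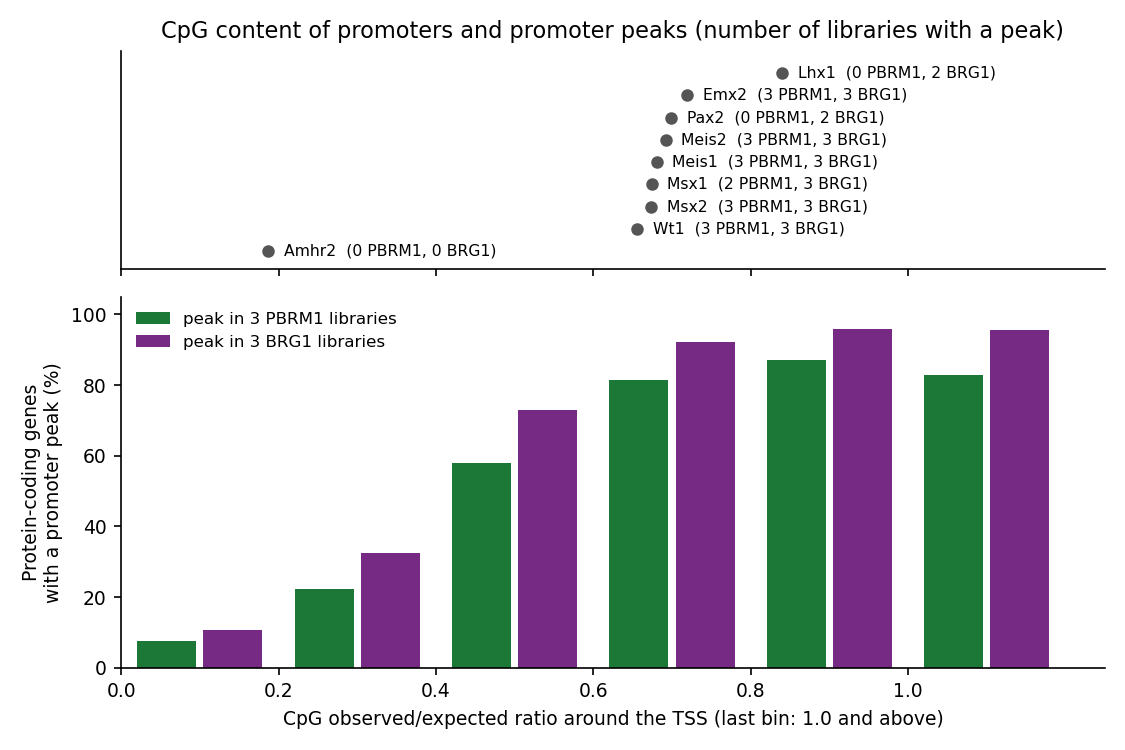
Upper panel, the CpG observed/expected ratio (x axis) of each of the 9 promoters, with the number of PBRM1 and BRG1 libraries that had a promoter peak. Lower panel, the share of all protein-coding genes (percent, y axis) with a promoter peak in 3 PBRM1 or 3 BRG1 libraries in bins of the same ratio, which rose from 10.7% to 95.8% for BRG1, with *Amhr2* in the lowest bin and *Lhx1* and *Pax2* in bins where most genes had a peak.

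Where a promoter peak was present, its fold enrichment was low for a promoter. The members gave 22 values in the BRG1 libraries, and all 22 lay below the median of the coding genes with a promoter peak in the same library, which was 8.09 to 8.23. Of 17 values in the PBRM1 libraries, 16 lay below their medians of 5.73 to 7.52, the exception being *Msx2* in replicate 1 at the 69.9th percentile. The median percentile was 17.5 for BRG1 and 13.1 for PBRM1, where 50 would be the middle of all such promoters. Among CpG-rich promoters alone it was 11.6 and 9.45. *Emx2* stayed at or below the 14.3 percentile in all 6 libraries, and *Wt1* in PBRM1 replicate 3 was at 1.21.

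By pileup, the height of the fragments at the summit, the same promoters stood nearer to the middle, at a median percentile of 41.4 for BRG1 and 32.8 for PBRM1. *Meis1* was at the 66.3, 61.6 and 53.2 percentile of pileup in the 3 BRG1 libraries while at the 32.1, 24.7 and 16.4 percentile of fold. At a single peak, both measures share the fragments and differ in the local background by which the fold is divided. The highest fold and the highest pileup of a gene were taken separately. For *Wt1* in BRG1 replicates 1 and 3 they came from different peaks. There the fold was that of the peak 34.6 kb downstream and the pileup that of the peak at the main TSS. The 9 genes were chosen by name and share libraries, so that these percentiles describe them and carry no test.

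**Figure D2:**
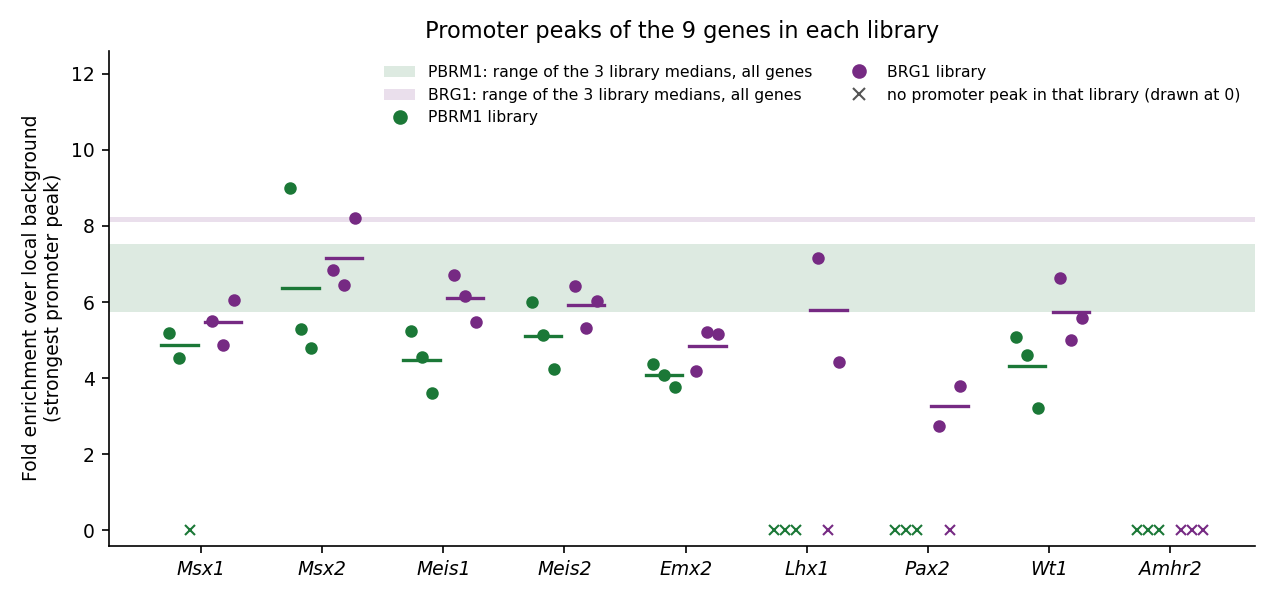
Fold enrichment over local background (y axis) of the strongest promoter peak of each gene in the 3 PBRM1 (green) and 3 BRG1 (purple) libraries, with the mean of the libraries that had a peak as a line and libraries without one as a cross at 0. For *Wt1* and *Pax2* in BRG1 and *Meis1* in PBRM1, the libraries' strongest peaks lay at different positions. The shaded bands span the library medians over all coding genes with a promoter peak, 5.73 to 7.52 for PBRM1 and 8.09 to 8.23 for BRG1, and nearly all points lie below the band of their antibody.

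The 9 loci held 112 sites, counting overlapping peaks of the 8 lists as 1, and 77 of them had a peak in a replicate library. Both antibodies had a replicate peak at 39 sites, BRG1 alone at 35 and PBRM1 alone at 3, and 12 sites were in all 6 libraries. Of these 12, 5 were the promoter sites of *Msx2*, *Meis1*, *Meis2*, *Emx2* and *Wt1*, 3 were promoters of the neighbours *Aatf*, *Sp1* and *Pcbp2*, and 4 lay away from any TSS. The nearest coding gene was the member itself for 92 of the 112 sites, and for 3 of 11 in the *Amhr2* locus and 3 of 7 in the *Lhx1* locus.

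**Figure D3:**
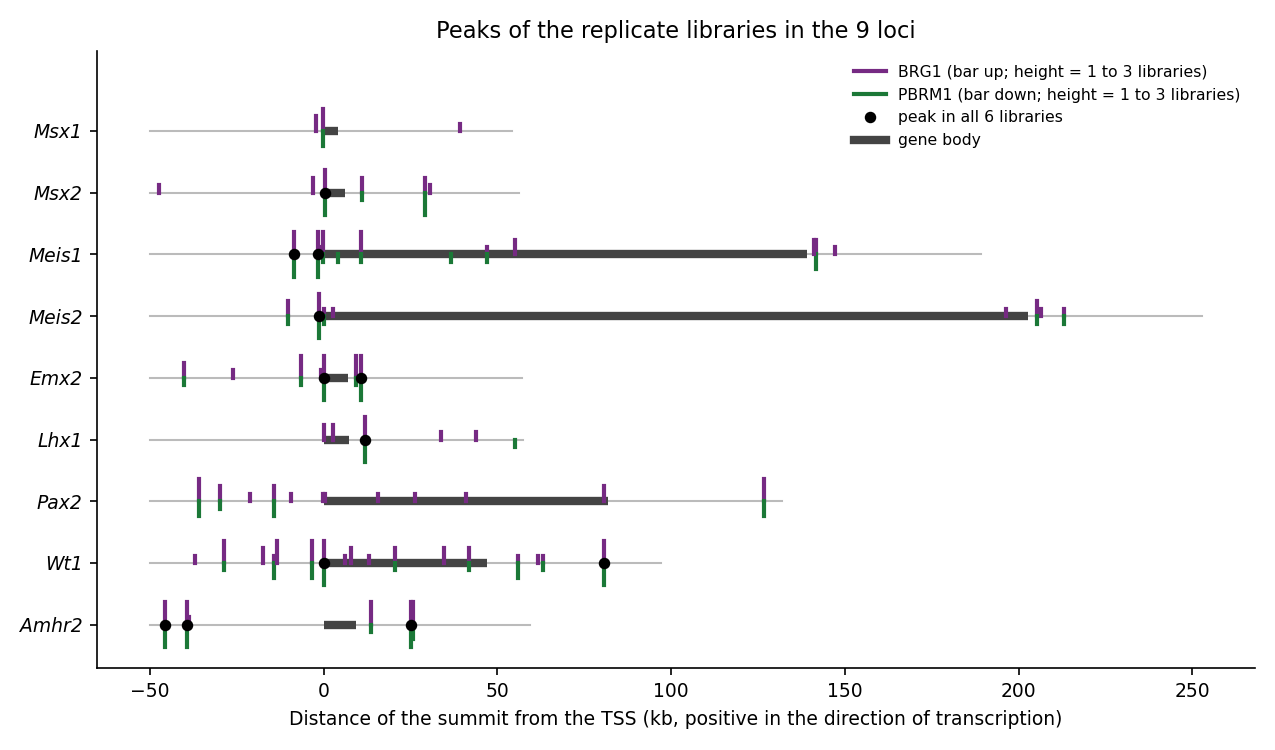
Sites with a replicate peak in the 9 loci, drawn by the distance of the summit from the main TSS (kb, x axis, positive in the direction of transcription), with purple bars up for BRG1 and green bars down for PBRM1, each 1 to 3 libraries high, and black points at the 12 sites in all 6 libraries. *Wt1* has the densest row, and the body of *Amhr2* holds no bar.

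Sites more than 2000 bp from any TSS with a pooled BRG1 peak and a peak in 3 BRG1 libraries numbered 10, in 5 of the 9 loci, 3 at *Emx2*, 3 at *Wt1*, 2 at *Pax2* and 1 each at *Meis1* and *Amhr2*. The loci of all coding genes held such a site in 33.8% of cases, and one in all 6 libraries in 15.7%, against 4 of the 9 here (*Meis1*, *Emx2*, *Wt1* and *Amhr2*). *Msx1*, *Msx2*, *Meis2* and *Lhx1* had none. These shares were not matched for locus length. Of the loci with such a site, *Meis1* (239 kb), *Pax2* (182 kb) and *Wt1* (147 kb) were longer than the coding median of 117 kb. *Emx2* (107 kb) and *Amhr2* (109 kb) were shorter. The pooled BRG1 fold of the 10 sites had a median of 6.86, beside 6.59 over the 6489 such sites of the genome, of which 31.4% were in all 6 libraries. In the 201 bp windows around their summits, the CpG ratio was at least 0.6 in 6 of the 10, all 6 at *Meis1*, *Emx2* and *Pax2*, and in 19.7% of the windows of the genome. The 3 *Wt1* windows had ratios of 0.372, 0.149 and 0.127, the first above and the others below the median of 0.347 over the genome's windows. No window of the 10 held the homeodomain string TAATTA, the MEIS string TGACAG, the nuclear receptor string AGGTCA or TGANTCA, which 3.46%, 12.8%, 14.7% and 12.5% of the genome's windows held. TGATNNAT was in 2 of the 10, at *Emx2* and *Pax2*. A string read by factors of the GATA family, AGATAA, was in 2 and in 5.77% of the genome's windows. The E-box string CATCTG of basic helix-loop-helix factors was in 2 and in 20.0% of the genome's windows, and the TEAD string in 3. The window of the *Wt1* site that was in all 6 libraries is shown because it had the lowest CpG ratio of the 4 such sites, and it held none of the 8 strings:

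*Wt1* site 80.6 kb downstream, chr2:105206981-105207181, plus strand: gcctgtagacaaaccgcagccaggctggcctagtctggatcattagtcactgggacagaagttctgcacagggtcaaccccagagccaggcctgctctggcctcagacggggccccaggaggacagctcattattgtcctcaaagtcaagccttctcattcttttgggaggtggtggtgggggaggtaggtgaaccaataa

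**Figure D4:**
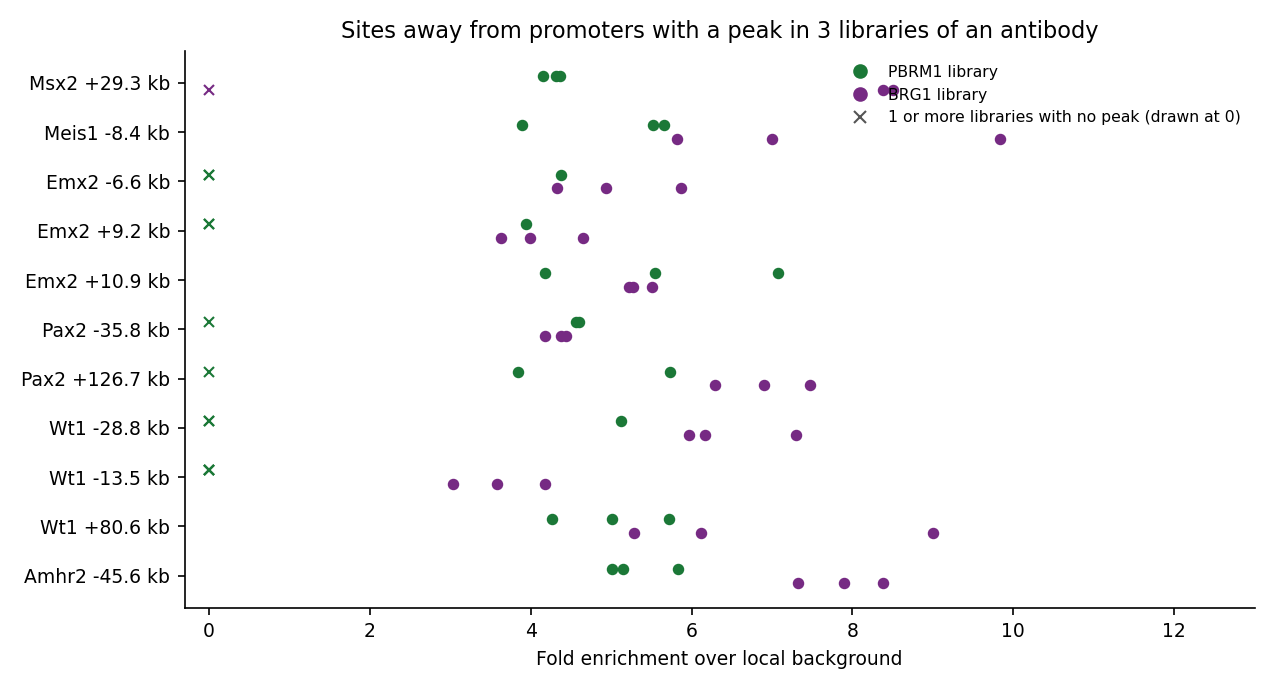
Fold enrichment (x axis) in each PBRM1 (green) and BRG1 (purple) library at the sites away from promoters that had a peak in 3 libraries of an antibody, named by gene and distance from the TSS (kb), with crosses at 0 for libraries without a peak, which overlie each other. The site upstream of *Meis1*, the *Emx2* site 10.9 kb and the *Wt1* site 80.6 kb downstream, and the *Amhr2* site have no cross.

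As whole lists, the BRG1 libraries held more peaks than the PBRM1 libraries, 36656 to 40610 against 21912 to 26363, with no overlap between the antibodies. The BRG1 libraries also had more peaks in these loci. The count was 27, 31 and 20 for PBRM1, a mean of 26.0 ± 5.57 (SD, n = 3), and 58, 45 and 46 for BRG1, a mean of 49.7 ± 7.23 (SD, n = 3). The groups did not overlap, and the difference of 23.7 peaks had p = 0.1 in the two-sided exact permutation test, the smallest p that 3 libraries against 3 allow. It was 15.3 (exact permutation p = 0.1) above a −log10 q of 5, and 6.00 (exact permutation p = 0.2) when each list was held to its 20000 peaks of lowest q. Per 10000 peaks of the library the counts were 11.8, 11.8 and 9.13 for PBRM1 and 14.3, 12.3 and 12.2 for BRG1, a difference of 2.05 (exact permutation p = 0.1), which was 1.18 without PBRM1 replicate 3 (exact permutation p = 0.3).

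Over all coding genes, promoter peaks were more frequent in every BRG1 library than in any PBRM1 library. Of 21951 such genes, 13165, 13321 and 12147 had one in PBRM1 replicates 1 to 3. In BRG1 replicates 1 to 3, 14507, 14290 and 14276 had one. Among the 9 genes, the number with a promoter peak was 6, 6 and 5 in the PBRM1 libraries and 8, 6 and 8 in the BRG1 libraries. The difference of 1.67 genes (exact permutation p = 0.3) was larger than either SD (0.577 for PBRM1 and 1.15 for BRG1) but the groups met at 6 genes, and it was 3.00 with promoters of 1000 bp (exact permutation p = 0.2) and 0.667 with 20000 peaks per list (exact permutation p = 0.6). The share of locus peaks at a promoter of the 9 genes was 29.6%, 25.8% and 25.0% for PBRM1 and 24.1%, 24.4% and 30.4% for BRG1, a difference of −0.473 percentage points (exact permutation p = 0.7). Its sign turned without PBRM1 replicate 1 (0.936), without BRG1 replicate 1 (0.628) and without BRG1 replicate 2 (0.474), so that no direction can be read.

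**Figure D5:**
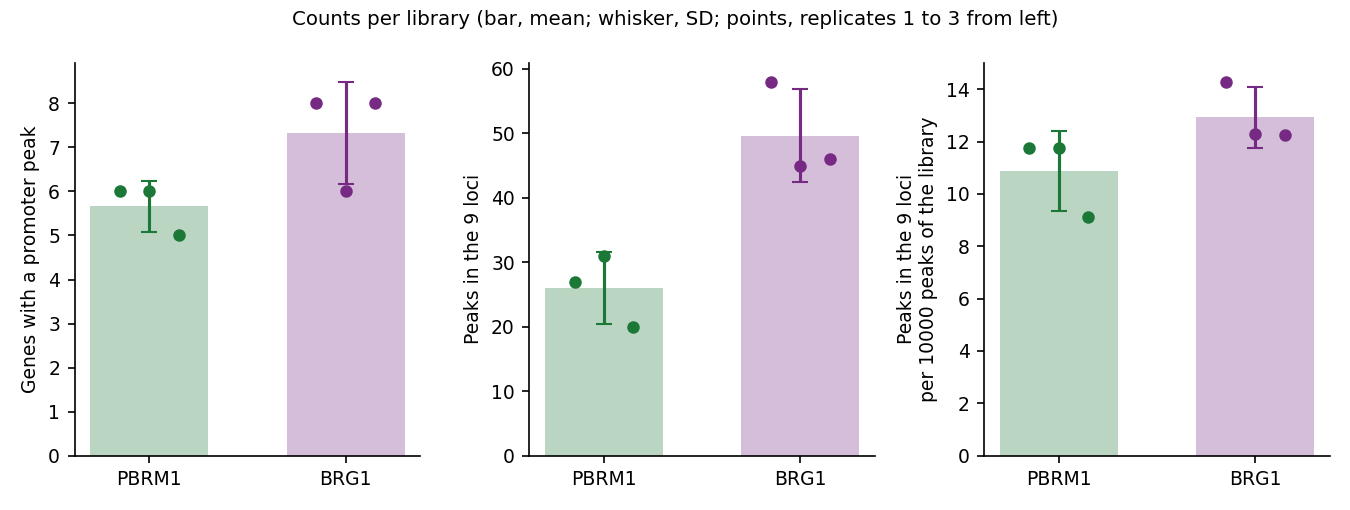
Per library, the number of the 9 genes with a promoter peak (left), the number of peaks in the 9 loci (middle) and that number per 10000 peaks of the library (right), with points for replicates 1 to 3, bars for the mean and whiskers for the SD. The BRG1 points lie above all PBRM1 points in the middle and right panels (45 to 58 against 20 to 31 peaks) and meet them at 6 genes in the left one.

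In the pooled lists, 54 of the 65 PBRM1 peaks of the 9 loci overlapped a BRG1 peak by at least 1 bp, 83.1% with a 95% Wilson interval of 72.2% to 90.3%, beside 78.6% of all PBRM1 peaks. In the other direction, 53 of 100 BRG1 peaks overlapped a PBRM1 peak, 53.0% (43.3% to 62.5%), beside 52.4% of all BRG1 peaks. The intervals cover counting error only, and both shares of the genome lie inside them. Within the loci, the 13 PBRM1 peaks that were in 3 PBRM1 libraries all overlapped a BRG1 peak, and 14 of the 23 that were in none did. The matching shares over all PBRM1 peaks were not computed, so that these counts are no result about the 9 loci.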

How the data were processed

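PBRM1 and BRG1 ChIC-Seq of WT primary uterine stromal cells on D4 was analysed from 6 replicate peak lists and 2 pooled ones, grouped by antibody and replicate from the sample titles. According to the methods and the labels, the authors aligned trimmed pairs to mm10 (GRCm38.p5) with Bowtie2 and, after duplicate removal, called peaks with MACS 2.2.7.1. Per the file headers, no control file was used, the q-value cutoff was 0.05 and the regional background spanned 10000 bp. For each peak, the deposited lists hold the fold enrichment, the −log10 of the q-value and the pileup signal. The lists were not scaled to each other, so that genes were ranked within a list, and means of fold over libraries are descriptions, and a peak can also mark open chromatin that any antibody would collect. Depth was 8868777 to 16505239 fragments per library.

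From these, peaks were intersected by at least 1 bp with GENCODE M21 loci in Python 3.11.15 with numpy 2.4.6, pandas 2.3.3 and scipy 1.17.1, and figures were drawn with matplotlib 3.10.9. Peaks of all lists that overlapped in a locus were merged into sites. The distance of a site from the TSS was taken at its pooled BRG1 summit. Where there was none, the pooled PBRM1 summit or else a replicate summit was used. Fold per gene was the strongest peak within 2000 bp of any of its TSSs. Sequences were read from the RefSeq GRCm38.p6 assembly, whose chromosomes are those of mm10. Motif strings were counted on both strands in 201 bp windows of 6469 distal BRG1 peaks, 20 on unplaced scaffolds or chrM being left out, and printed on the strand of the gene. Antibodies were compared with two-sided exact permutation tests over libraries. The study calls the replicates biological, the labels do not say which mice or cultures each came from, and p measures the spread between these libraries. Shares of peaks have 95% Wilson intervals.

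Sites named were the strongest promoter site per gene, the strongest distal site with a peak in 3 BRG1 libraries and every locus site in all 6 libraries. The other distal sites with a peak in 3 libraries, and the weak peaks of *Lhx1*, *Pax2* and *Amhr2*, were named after their values were seen, as were the CpG classes, motif strings and percentiles. The genes and gene lists were chosen with earlier results of these data known. Alternatives were other promoter distances (1000 and 5000 bp), flanks (10 and 100 kb) and transcript sets, a −log10 q of at least 5, the top 20000 peaks, an overlap of 50%, the replicate block and libraries left out. The overlap and test steps were tested on simulated data.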

Additional observations from a re-analysis of the deposited data

How the results depend on the processing

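The peaks in the loci kept BRG1 above PBRM1 under every alternative tried, with other flanks, a stricter q-value, equal list lengths, nearest genes, the replicate block and each library left out. Leaving out libraries gave differences of 19.5 to 28.5 peaks, 1.18 to 2.82 per 10000 peaks and 1.00 to 2.50 genes with a promoter peak. The difference in the promoter share of locus peaks turned its sign with promoters of 1000 bp (2.24), promoters of 5000 bp (6.41) and 20000 peaks per list (0.469), and ran from −3.43 to 2.04 when libraries were left out, where it turned without replicate 1 of both antibodies (2.04), PBRM1 replicate 1 (0.936), BRG1 replicate 1 (0.628) and BRG1 replicate 2 (0.474). The cause was not tested. The share of pooled PBRM1 peaks on a BRG1 peak was 58.5% when an overlap of 50% of both peaks was asked for.

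The replicate block, an exact sign-flip permutation of the mean difference over the 3 same-numbered pairs, left the differences as they were (23.7, 2.05, 1.67 and −0.473), with exact p of 0.25, 0.25, 0.5 and 0.75, where 0.25 is the smallest that 3 pairs allow. Deviations of same-numbered libraries from their antibody's mean at 13093 peaks correlated between −0.0400 and −0.0108, and those of differently numbered libraries between −0.0174 and 0.0293. The same-numbered libraries thus shared no deviation at these peaks. Whether they came from the same mice or cultures cannot be told from these values. Leaving out single libraries was added after the data were seen.

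No result here can pass 0.05 with 3 libraries against 3. The pooled PBRM1 list holds promoter peaks of fold 3.07 at *Lhx1* and 3.35 at *Amhr2* where no PBRM1 replicate had one, and PBRM1 replicate 3 had the most fragments and the fewest peaks. The part of depth was not tested. Without the IgG libraries, fragments that any antibody would collect cannot be told apart from occupancy.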

Other observations

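Genes that work with the members carried promoter peaks to different degrees. All 7 TALE partners, genes that encode homeodomain proteins of the MEIS class or their partners, had a peak in 3 BRG1 libraries and 5 of them in 3 PBRM1 libraries. *Pbx3* had BRG1 folds of 8.59, 9.56 and 8.23, above the *Meis1* and *Meis2* promoters in each library, whereas *Pbx2* (3.60, 3.25 and 3.65), *Pknox2* (5.20, 3.91 and 4.99) and *Tgif1* (4.26, 4.40 and 4.14) were below both in each. Of 15 genes of duct formation and patterning, 10 had a peak in 3 BRG1 libraries but 3 in 3 PBRM1 libraries (*Hoxa10*, *Nr2f2* and *Ret*). *Hoxa10*, which specifies the uterine part of the duct, had 3.81, 3.54 and 3.30 in PBRM1 and 6.48, 4.17 and 6.56 in BRG1, whereas *Hoxa11* had no PBRM1 replicate peak and 2.71, 3.81 and 3.82 in BRG1. *Pax8*, the relative of *Pax2* in the duct epithelium, matched it in having a peak in BRG1 replicates 1 and 3 (3.59 and 4.30) and in no PBRM1 replicate.

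Among 7 homeobox relatives of the members, 5 had a peak in 3 BRG1 libraries and 1, *Meis3*, in 3 PBRM1 libraries, and *Lhx5* had none in any replicate. Of 6 partners of LHX1 and WT1, 4 and 2 did, with *Cited2* and *Ldb1* in all 6 libraries. The shares over all coding genes were those given above, 61.4% for BRG1 and 52.2% for PBRM1. These lists were chosen with results of the same libraries known.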
